A study of Homo sapiens with 6 samples.

Results

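The CXC chemokine cluster with PPBP and PF4 was described in HEL cells from 9 genes on human chromosome 4, PPBP, PF4, PF4V1, CXCL1, CXCL2, CXCL3, CXCL5, CXCL6 and CXCL8, and 9 of these 9 had a value among the 31999 genes listed. The genes were chosen by family and position, and the cluster itself was selected on earlier results of these data, namely the difference of PPBP and PF4 between the groups, which is not analysed here. HEL is a human erythroleukemia cell line. Its cells carried either shCtrl, a control small hairpin RNA (3 libraries), or shTMIGD2, a hairpin that targets the receptor gene TMIGD2 (3 libraries), and both groups were grown in RPMI medium with serum. The hairpins were delivered by lentivirus followed by puromycin selection according to the study's methods, so the controls also carry an integrated vector. The labels name the libraries of a group as biological replicates and do not say which TMIGD2 hairpin was sequenced. Poly(A) RNA was sequenced with a kit that keeps strand. The value used for each gene was 1 mean level over all 6 libraries, formed by the authors, so the spread between libraries is not given here, a mean over both groups is the level in neither, and shTMIGD2 was not compared with shCtrl. Bulk RNA cannot tell fewer cells that express a gene from less RNA per cell.

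Chemokines are small secreted proteins that bind G protein-coupled receptors on leukocytes and guide their migration. CXC chemokines have a single residue between the first cysteines of the mature protein, and those with the residues ELR before this CXC motif are ligands of CXCR1 and CXCR2 and attract neutrophils. PF4 and PPBP are products of megakaryocytes that are stored in platelet granules, and CXCL1, CXCL2, CXCL3, CXCL5, CXCL6 and CXCL8 are classical genes of the inflammatory response.

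In HEL cells the cluster was uneven, with 2 platelet chemokine genes high, 3 inflammatory chemokine genes at low to middle levels and 4 genes near the lower limit of detection. The lowest values of the table lay on evenly spaced steps of 1 read, from which the depth was recovered as about 190100000 counted fragments over the 6 libraries, a mean of about 31700000 each. The number of reads behind each mean follows from this depth and from an offset assumed to be 2 counts per library. The 95% Poisson interval of that number covers counting error only. The 9 genes took 21034 reads in all, or 110.6 CPM (counts per 1000000 counted fragments). Of these reads, 83.4% belonged to PF4 and PPBP, 13.5% to CXCL2 and CXCL3, 2.79% to CXCL8 and 0.314% to PF4V1, CXCL5, CXCL1 and CXCL6 together. Levels of different genes are compared below per kilobase (kb) of annotated exon.

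PF4, platelet factor 4, a heparin-binding chemokine of platelet granules, had the highest level of the cluster. The authors' mean was 5.83 log2 CPM, which corresponds to 10816 reads (interval 10613 to 11022) and 58.2 CPM per kb. Its level per kb was above that of 96.1% of coding genes. Not scaled to length, 75.9% of coding genes were below PF4. The gene lies at 73980811 to 73982027 on the minus strand of chromosome 4 (GRCh38).

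PPBP, pro-platelet basic protein, the precursor of several platelet peptides that include the neutrophil attractant CXCL7, came next. Its mean was 5.15 log2 CPM, from 6725 reads (interval 6565 to 6888), and its level was 27.1 CPM per kb, above 90.5% of coding genes. Not scaled to length, 66.7% of coding genes were below PPBP. PF4 exceeded PPBP by 2.15-fold per kb (95% counting interval of the ratio 2.08 to 2.22), and the counting intervals of the 2 genes did not overlap. With the longest transcript as the length the fold was 2.72, so its size depends on the length used. PF4 was also the higher when not scaled to length. PPBP lies at 73986439 to 73988190 on the minus strand, and the starts of the 2 genes are 6.16 kb apart. GENCODE also places a read-through gene, ENSG00000288796, over both on the same strand. It shares 52.1% of the exon bases of PF4 and 34.7% of those of PPBP, had no value here, and reads that fall in the shared bases cannot be told apart. The 140 bases before the start of PPBP (RefSeq start, GRCh38.p14, chr4:73988191-73988330, minus strand) are shown because PPBP is the platelet gene of the pair with an entry in the promoter table used. Capitals mark a TATAAA element at positions -31 to -26.

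PPBP: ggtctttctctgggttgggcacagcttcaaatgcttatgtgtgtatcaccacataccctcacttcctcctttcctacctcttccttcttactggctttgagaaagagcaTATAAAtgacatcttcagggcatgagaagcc

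PF4V1, a duplicate of PF4 that encodes a near-identical chemokine, was far lower than its source gene. It had 40 reads over all 6 libraries (interval 28.6 to 54.5), a mean of -1.87 log2 CPM and 0.284 CPM per kb. PF4 had 205 times this level per kb (interval of the ratio 150.8 to 287.7), although the proteins are identical at 84.6% of aligned positions, and at 95.5% from 6 residues before the CXC motif on. PF4V1 lies at 73853296 to 73854483 on the plus strand. Of the 50-base windows of its transcript, 11.1% also occur in another gene, with 76 windows shared with PF4. Reads in these windows could have been assigned to either gene or left out, and 88.9% of the windows were unique.

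CXCL2 and CXCL3, ligands of CXCR2 that are induced in myeloid cells by inflammatory signals, had nearly equal levels. CXCL2 had 1157 reads (interval 1091 to 1226), a mean of 2.62 log2 CPM and 4.35 CPM per kb. CXCL3 had 1684 reads (interval 1605 to 1766), a mean of 3.16 log2 CPM and 3.99 CPM per kb. CXCL2 exceeded CXCL3 by 1.09-fold per kb (95% counting interval of the ratio 1.01 to 1.18). With the longest transcript as the length the fold was 1.01, and not scaled to length CXCL3 was the higher, so the direction depends on the length used. Per kb, 60.1% of coding genes were below CXCL2 and 58.7% below CXCL3. Not scaled to length, 43.0% were below CXCL2 and 46.4% below CXCL3, so their side of the middle of the coding genes turned with the scaling. CXCL2 lies at 74097040 to 74099196 and CXCL3 at 74036589 to 74038807, both on the minus strand.

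CXCL1, which encodes the ligand most similar to CXCL2, was at the limit of detection. It had 5 reads over the 6 libraries (interval 1.62 to 11.7), a mean of -3.48 log2 CPM and 0.0193 CPM per kb. Since the 5 reads cover both groups, neither group can hold more than 5. The level of CXCL2 per kb was 226 times that of CXCL1 (interval of the ratio 96.3 to 695.6) and the level of CXCL3 was 207 times that of CXCL1 (88.4 to 637.5). With the offset that the authors' tool adds to the counts left in, these ratios were 67.0 and 61.2. Of the 50-base windows of the CXCL1 transcript, 94.7% occur in no other gene, 60 windows are shared with CXCL2 and 6 with CXCL3. CXCL1 lies at 73869393 to 73871308 on the plus strand.

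The promoters of these 3 genes are shown together because they are similar in sequence while the level of CXCL1 differs from the others. Each line gives the 140 bases before the RefSeq start on GRCh38.p14, at chr4:73869253-73869392 (plus strand) for CXCL1, chr4:74099196-74099335 (minus strand) for CXCL2 and chr4:74038690-74038829 (minus strand) for CXCL3. The RefSeq start of CXCL3 lies inside the GENCODE gene, so 118 of its 140 bases, and 1 of those of CXCL2, fall within the GENCODE positions given above. Capitals mark a match to the kappaB consensus, the recognition sequence of NF-kappaB, together with its overlapping match on the other strand.

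CXCL1: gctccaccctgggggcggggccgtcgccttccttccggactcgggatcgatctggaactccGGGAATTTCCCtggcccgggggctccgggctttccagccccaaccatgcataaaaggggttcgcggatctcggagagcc
CXCL2: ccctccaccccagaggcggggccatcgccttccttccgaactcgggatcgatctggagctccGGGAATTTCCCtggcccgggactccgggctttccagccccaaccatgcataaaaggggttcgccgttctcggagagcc
CXCL3: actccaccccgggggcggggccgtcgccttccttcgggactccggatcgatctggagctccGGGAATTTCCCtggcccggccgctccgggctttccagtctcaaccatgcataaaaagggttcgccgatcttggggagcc

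The match reads GGGAATTTCC in all 3 genes and starts at position -79 in CXCL1 and CXCL3 and at position -78 in CXCL2. Over the 300 bases of each promoter in the table (250 before the start and 50 after it), CXCL1 and CXCL3 were identical at 81.4% of positions, CXCL2 and CXCL3 at 73.4%, and CXCL1 and CXCL2 at 71.4%. CXCL1, with 5 reads, and CXCL2 and CXCL3, with 1157 and 1684 reads, thus hold the same 10 letters at nearly the same place.

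CXCL8, interleukin 8, a ligand of both CXCR1 and CXCR2 and the member at the other end of the cluster, was intermediate. It had 587 reads (interval 540.5 to 636.5), a mean of 1.66 log2 CPM and 1.19 CPM per kb, above 43.1% of coding genes. Not scaled to length, 38.0% of coding genes were below CXCL8. Its level was 3.34-fold lower than that of CXCL3 and 4.21-fold higher than that of PF4V1 per kb, with counting intervals that did not overlap in either pair. CXCL8 lies at 73740519 to 73743716 on the plus strand. The 140 bases before its RefSeq start (GRCh38.p14, chr4:73740429-73740568, plus strand), of which 50 fall within the GENCODE positions of the gene, are shown for comparison with PPBP, with a TATAAA element in capitals at positions -31 to -26, the same place as in PPBP.

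CXCL8: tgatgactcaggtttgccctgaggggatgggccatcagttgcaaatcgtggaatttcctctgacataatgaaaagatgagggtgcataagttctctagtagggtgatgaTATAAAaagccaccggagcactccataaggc

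CXCL5 and CXCL6, a pair of neutrophil-attracting ligands, were also near the limit of detection. CXCL5 had 16 reads over the 6 libraries (interval 9.15 to 26.0), a mean of -2.76 log2 CPM and 0.0346 CPM per kb. CXCL6 had 5 reads (interval 1.62 to 11.7), a mean of -3.48 log2 CPM and 0.0129 CPM per kb. The 95% interval of the ratio ran from 0.626 to 6.24 for CXCL5 over CXCL1, from 0.938 to 9.35 for CXCL5 over CXCL6 and from 0.345 to 6.51 for CXCL1 over CXCL6, so the order of these 3 genes is not resolved at this depth. CXCL5 lies at 73995642 to 73998677 on the minus strand, and 17.3% of its exon bases have an annotated lncRNA on the opposite strand. CXCL6 lies at 73836640 to 73849064 on the plus strand, and 4.61% of its exon bases overlap the pseudogene PPBPP1 on the same strand.

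**Figure D1:**
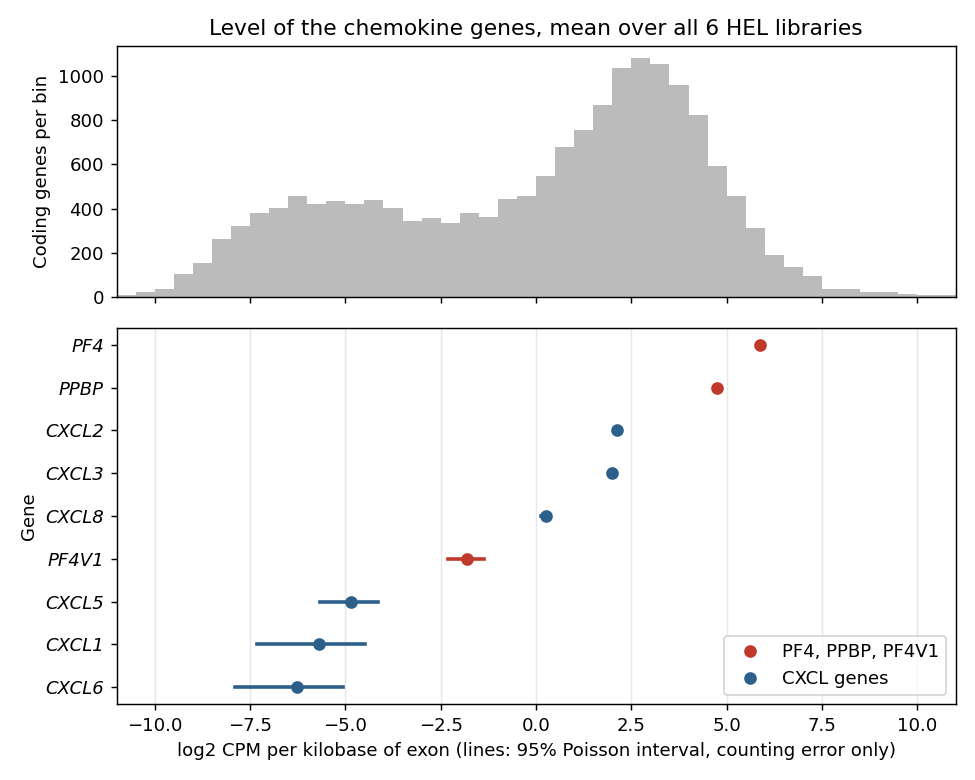
Upper panel, number of coding genes (vertical axis) per bin of log2 CPM per kb of exon (horizontal axis). Lower panel, the same horizontal axis for the 9 chemokine genes, with points for the mean over all 6 libraries and lines for the 95% Poisson interval (counting error only, with no spread between libraries). PF4 and PPBP sit at the upper side of the distribution at 58.2 and 27.1 CPM per kb, CXCL2, CXCL3 and CXCL8 between 1.19 and 4.35, and the other 4 genes at 0.284 or less.

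The order from the highest to the lowest level per kb was PF4, PPBP, CXCL2, CXCL3, CXCL8, PF4V1, CXCL5, CXCL1 and CXCL6. Of the 8 neighbouring pairs in this order, the order of CXCL5 and CXCL1 and of CXCL1 and CXCL6 is not resolved by the reads, and that of CXCL2 and CXCL3 depends on the length used. The step from PF4V1 to CXCL5 was 8.20-fold (interval of the ratio 4.49 to 15.7) and that from PPBP to CXCL2 6.22-fold (interval 5.84 to 6.62), and with the offset left in they were 6.09-fold and 6.17-fold. With the longest transcript as the length they were 8.20-fold and 4.96-fold, the latter outside its counting interval. No member had a read total between the 40 of PF4V1 and the 587 of CXCL8. The median of the 9 members was 1.19 CPM per kb, against 0.754 for all genes matched to the annotation and 2.16 for the coding genes.

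Along the chromosome the cluster spans 358.7 kb from CXCL8 to CXCL2, with 4 genes on the plus strand and 5 on the minus strand. The low genes CXCL6, PF4V1 and CXCL1 lie next to each other, as do the high genes PF4 and PPBP, and CXCL3 and CXCL2 at middle levels. The start of CXCL5 is 10.5 kb from that of PPBP, and PPBP had 782 times its level per kb (interval of the ratio 482.0 to 1371), or 448.2 times with the offset left in. CXCL6, PF4V1 and CXCL1 follow each other at 16.7 and 16.1 kb with 5, 40 and 5 reads. The highest genes after PF4 and PPBP, CXCL3 and CXCL2, have starts that are 60.4 kb apart. GENCODE lists 20 genes in the interval, and of the 11 that are not members 2 had a value, the pseudogene HNRNPA1P55 with 69 reads and PPBPP2 with 9 reads. PPBPP2 stands for 2 overlapping entries among the 20, an lncRNA and a pseudogene, and its value was matched by symbol, so it cannot be assigned to either.

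**Figure D2:**
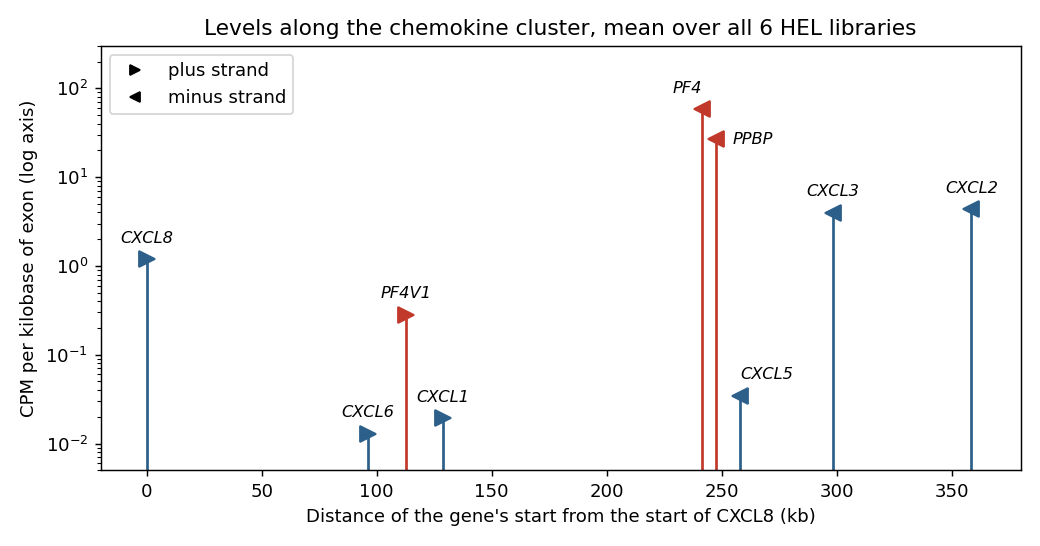
Distance of each gene's start from the start of CXCL8 in kb (horizontal axis) and mean level over all 6 libraries in CPM per kb of exon on a log axis (vertical axis), with arrowheads for the strand. PF4 and PPBP stand beside each other at 58.2 and 27.1 CPM per kb, while their neighbour CXCL5 lies at 0.0346.

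Genes in and around the cluster on chromosome 4 were described from a list of 17, of which 14 had a value and 5 reached 1 CPM. Their median was 0.0815 CPM per kb. The highest were ANKRD17 at 15.5 CPM per kb, the ubiquitin ligase gene RCHY1 at 4.87, COX18, which encodes a mitochondrial inner membrane factor, at 2.21, and EREG, the gene of the growth factor epiregulin, at 1.22. The liver genes ALB and AFM, which lie on the CXCL8 side of the cluster and were chosen after their values were seen, had 2 reads each.

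Members with similar proteins had levels that were close in some pairs and far apart in others. Of the 36 pairs of members, 5 were identical at 75% of aligned positions or more and the 31 others at 26.6% to 44.9%. Among the 5 similar pairs, CXCL2 and CXCL3 (87.9% identical) had a 1.09-fold difference and CXCL5 and CXCL6 (79.8%) a 2.68-fold one, whose interval of 0.938 to 9.35 includes no difference. CXCL1 and CXCL2 (89.7%), CXCL1 and CXCL3 (86.9%) and PF4 and PF4V1 (84.6%) differed by 226-fold, 207-fold and 205-fold. Among the 31 other pairs the widest difference was that of PF4 and CXCL6, at 4513-fold (interval of the ratio 1933 to 13899), or 1329-fold with the offset left in, since CXCL6 had 5 reads. The pairs share members and are not independent, so no correlation is given.

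**Figure D3:**
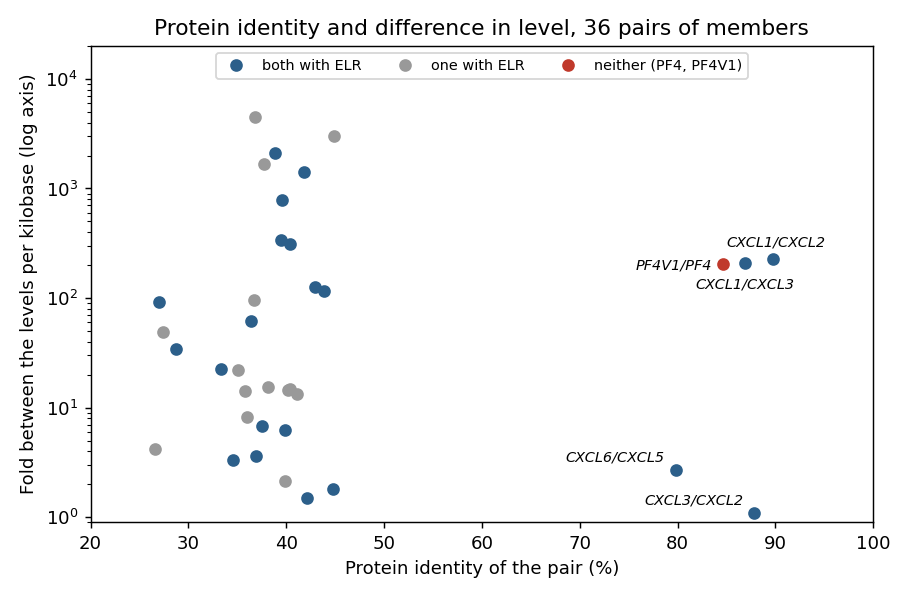
Protein identity of each of the 36 pairs of members in percent (horizontal axis) and fold between their mean levels per kb on a log axis (vertical axis), coloured by how many proteins of the pair have ELR before the CXC motif. The 5 pairs at 79.8% identity or more are labelled, and their folds lie at 1.09 and 2.68 or between 205 and 226.

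The ELR residues were present in 7 of the 9 proteins and absent from PF4 and PF4V1. The 7 genes with ELR took 48.4% of the reads of the cluster, and their levels ran from 0.0129 CPM per kb for CXCL6 to 27.1 for PPBP. Proteins of the cluster were 99 residues (CXCL8) to 128 residues (PPBP) long before processing.

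Motifs were counted on both strands in the 300-base promoters of the 8 members with an entry, and beside each the share of the 35116 promoters in the table that hold it is given. The kappaB consensus occurred in 5 members, CXCL1, CXCL2, CXCL3, CXCL5 and CXCL6, against 11.3% of all promoters. These 5 included the 3 genes with 16 reads or fewer as well as CXCL2 and CXCL3, so a match was found at both ends of the range of levels among CXCL genes. CXCL5 and CXCL6 held it at positions -91 and -90, and their promoters were identical at 85.3% of positions, the highest value among the pairs. The promoters of CXCL1, CXCL2 and CXCL3 also resemble each other, so the 5 matches are not independent. CXCL8 was not counted, but its printed bases hold TGGAATTTCC, which differs from GGGAATTTCC at the first letter only. TATAAA occurred in CXCL8, PPBP and PF4V1 (11.5% of all promoters), at position -221 in PF4V1. AGATAA, a binding motif of GATA factors, occurred in PPBP, CXCL5 and CXCL6 (10.3%). In CXCL5 and CXCL6 it starts at -33 and -32, so these matches are not independent either.

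AGGAAG, a motif of ETS factors, occurred in 6 of the 8 members (33.6% of all promoters) and 3 times in PPBP, where 1 match at positions -221 to -216 overlaps the AGATAA at -217. In CXCL1, CXCL2 and CXCL3 the match starts at -113, -112 and -113. Since these promoters resemble each other, the 6 are not independent. TGANTCA, bound by AP-1, occurred in CXCL8 alone (7.71%), at positions -137 to -131. TTGCNNAA, a C/EBP motif, occurred in PPBP and CXCL2 (10.5%). TGACGTCA, the full cyclic AMP response element bound by CREB, occurred in none of the 8 (1.85%). A match is a description of letters, and the absence of one says only that these letters do not occur in these 300 bases.

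The transcription factors and other regulators listed for these genes or motifs were all expressed. Of 19 regulators listed, 19 had 10 CPM or more, with a median of 16.8 CPM per kb. The highest were GATA2 at 229.9, NFE2 at 210.6, GATA1 at 161.5 and TAL1 at 74.2 CPM per kb, all factors of erythroid and megakaryocyte gene expression, and each exceeded PF4.

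Of 11 genes for receptors, scavenger receptors and binding partners of chemokines, 10 had a value and 5 reached 1 CPM. Of all 31999 genes listed, 14000 had a mean of 0 log2 CPM or more, which is 1 CPM with the offset left in. The median of the 10 was 0.512 CPM per kb. The highest was SRGN at 83.2 CPM per kb, the gene of the granule proteoglycan serglycin, which holds PF4 in platelet granules. ACKR1, the Duffy antigen and a scavenger of inflammatory chemokines on red cells, had 12.8 CPM per kb, the syndecan gene SDC4 2.79 and the scavenger receptor gene ACKR2 1.67. The remaining gene of the list that reached 1 CPM was CXCR4, with 534 reads, 2.81 CPM and 0.967 CPM per kb. CXCR1 and CXCR2, the receptors of the ELR ligands, were chosen after their values were seen and had 14 and 27 reads over the 6 libraries.

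Other chemokine genes were low. Of 8 CXC ligands outside the cluster, 6 had a value and 0 reached 1 CPM, with CXCL16 the highest at 0.137 CPM per kb. Of 22 CC, XC and CX3C ligands, 9 had a value and 1, CCL28, reached 1 CPM, at 0.240 CPM per kb. PF4, PPBP, CXCL2, CXCL3 and CXCL8 each had a higher level per kb than every one of these 15 genes with a value.

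The labelled cell type was checked against marker genes. For comparison, 14000 of the 31999 genes listed had a mean of 0 log2 CPM or more, which is 1 CPM with the offset left in. Erythroid markers were present at 1 CPM or more for 12 of 12 genes, with a median of 28.8 CPM per kb and the fetal globin gene HBG1 the highest at 576.3. Of 18 megakaryocyte and platelet markers, 17 had a value and 13 reached 1 CPM, with a median of 13.4 CPM per kb. ITGA2B, the platelet integrin subunit, was at 261.6 and GP9 at 81.6 CPM per kb, both above PF4, while the 4 listed markers under 1 CPM were CCL5, CLEC1B, VWF and F13A1 with 37, 9, 17 and 6 reads. Markers of other lineages reached 1 CPM for 3 of 10 granulocyte and monocyte genes (LYZ the highest at 12.2 CPM per kb), 2 of 7 T and NK cell genes (CD2, 4.69), 1 of 4 B cell genes (CD79A, 3.68) and 3 of 6 endothelial and fibroblast genes (PECAM1, 19.6), and their part in the levels of the chemokine genes was not tested. MPO and ELANE, which define granulocyte precursors and were chosen after their values were seen, had 7 and 4 reads. The 3 genes of the same list that reached 1 CPM, LYZ, ITGAM and CSF1R, had 4015, 1797 and 215 reads. TMIGD2 itself had 3208 reads over all libraries and 13.3 CPM per kb, a mean that cannot check the knockdown, and HHLA2, the gene of its ligand, had 3 reads.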

How the data were processed

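Poly(A) RNA of 3 shCtrl and 3 shTMIGD2 libraries was analysed, grouped by the hairpin named in the labels. Per the labels and the study's methods, reads were aligned with STAR 2.6.1b to hg38 and counted with HTSeq 0.6.1 on a refSeq annotation. The strand setting of the counting is not given in the sources used here. The authors' processing notes also name DESeq2 and edgeR. The table deposited by the authors gives, for each of 31999 genes, a mean log2 CPM over the 6 libraries, which was used. It also holds the authors' own comparison of the groups (the fold change on the log2 scale with its F, p and adjusted p), which was not used and is not printed. Of the gene names, 24 had turned into dates and were left out of the matching.

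The mean log2 CPM contains an offset, assumed here to be 2 counts per library, 12 in all. The spacing of the lowest 5 steps gave 14.0 for reads and offset together at the first step. The 2 reads of that step therefore follow from the assumed offset. The offset was removed. Of 16492 genes under 100 reads, 91.5% then fell within 0.1 of a whole read. The procedure was first tested on simulated data made with the same offset, so that test cannot show whether the offset is right. The read total of each gene depends on the assumed offset, while the estimate of depth depends on the spacing of the steps. Poisson intervals (95%) were exact, and those of a ratio of 2 levels were exact binomial, given the sum of their reads. Exon lengths, proteins and positions come from GENCODE 44, matching 22987 genes by symbol and 581 by an older one, with 16665 coding. Proteins were aligned with BLOSUM62 (gap open 11, gap extend 1). Promoters come from RefSeq (GRCh38.p14). Python 3.11.15, scipy 1.17.1 and Biopython 1.88 were used.

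The members and lists were chosen with earlier results of these data known. All 9 members are named, and of each other list at most 4 genes, those of the highest level per kb, unless the text says otherwise. Alternatives were the longest transcript, the offset kept, no scaling to length, other backgrounds, the protein from 6 residues before the CXC motif, and promoters without the bases after the start.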

Additional observations from a re-analysis of the deposited data

How the results depend on the processing

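The number of members at 1 CPM per kb or more was 5, and also 5 with the longest transcript, with the offset kept and, as CPM, without scaling to length. The lowest of these 5 per kb was CXCL8, and 43.1% of coding genes were below it. Most coding genes thus also reached 1 CPM per kb, with a median of 2.16, and the count does not set the cluster apart. Of the 9 members, by CPM not scaled to length, 5 were above the median of all genes listed, but 2 against genes whose mean level was 0 log2 CPM or higher and 2 against coding genes, since both backgrounds leave out low genes. The median protein identity over pairs was 39.5%, and 44.1% from 6 residues before the CXC motif on. The kappaB consensus was found in 5 members with and without the bases after the start. With the longest transcript the level of 4 of 9 members moved by more than its counting interval, by up to 1.35-fold. With the offset kept, CXCL1, CXCL5 and CXCL6 moved, by up to 3.40-fold.

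No paired analysis was possible because the only value used for a gene was 1 mean over all 6 libraries. For the same reason an edgeR test between the groups, its DESeq2 alternative, the fit without a filter and the fits that leave out each library were not run. Depth limits CXCL1, CXCL5, CXCL6 and PF4V1, whose totals were 40 reads or fewer.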
